A study of Mus musculus with 2 samples.

Results

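The 5p arms of miR-15a, miR-15b, miR-16, miR-195a, miR-322, miR-497 and miR-503 were followed between day 0 and day 10 of embryoid body formation. They were chosen by probe name, and 7 of the 1265 mature miRNA probes on the array met the rule. Mouse embryonic stem cells of line CRL-1934 and strain 129S2/SvPas, kept in medium with 15% fetal bovine serum, were moved to ultra-low attachment dishes, in which they aggregate in suspension. Total RNA from each day was labelled with Cy5 and hybridised to 1 array, with probes for release 19 of the miRBase catalogue. Neither group carries a labelled transgene or deletion, and the labels give time as the only difference between them. There was no replicate array, so no test was possible, and every SD below is over the 3 spots of a probe and holds none of the variation between cultures.

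These miRNAs form the miR-15/16 family, which shares a seed, the bases near the 5′ end that pair with target mRNAs. Members repress cyclins and other factors that drive the cell cycle, and miR-16 represses the survival factor BCL2, as known from human leukaemia cells. In mouse myoblasts miR-322 and miR-503 accumulate as the cells leave the cell cycle, and in the mouse heart miR-195 is tied to the arrest of cardiomyocyte division after birth. The genes lie in clusters: miR-15a with one copy of miR-16, miR-15b with another copy, miR-497 with miR-195a, and miR-322 with miR-503. The 5p arm is called the guide here, after its usual role in this family, and the 3p arm its partner. These names do not state which arm was brighter on these arrays.

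The mature sequences are shown to make the shared seed visible, with bases 2 to 8 in capitals. All 7 targets printed in the array files matched a RefSeq mature miRNA (GRCm38.p6) by sequence.
mmu-miR-15a-5p: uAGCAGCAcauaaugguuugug
mmu-miR-15b-5p: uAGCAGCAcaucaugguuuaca
mmu-miR-16-5p: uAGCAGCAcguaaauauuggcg
mmu-miR-195a-5p: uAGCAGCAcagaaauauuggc
mmu-miR-322-5p: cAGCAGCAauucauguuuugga
mmu-miR-497-5p: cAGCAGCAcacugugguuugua
mmu-miR-503-5p: uAGCAGCGggaacaguacugcag

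A group of 6 members had the seed AGCAGCA, whose complement in a target reads UGCUGCU. miR-503-5p differed from miR-16-5p inside the seed by A8G, counted from 1 at the 5′ end. Over the whole length the closest pair was miR-16-5p and miR-195a-5p, with 19 of 21 bases equal and the differences G10A and U11G. miR-15a-5p and miR-15b-5p shared 18 of 22 bases and differed by A12C, G20A, U21C and G22A. The signal of a single member of such a pair is uncertain, since RNA of one may bind the probe of the other. miR-503-5p shared 45.5% to 54.5% of its bases with each of the other members.

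The mature miRNA bases were placed by RefSeq on GRCm38.p6. miR-15a-5p lies on the minus strand at chr14:61632075-61632096, and a copy of miR-16-5p lies at chr14:61631936-61631957, both within the span of the non-coding gene Dleu2. miR-15b-5p at chr3:69009775-69009796 and the other copy of miR-16-5p at chr3:69009918-69009939 lie on the plus strand within the span of Smc4, which encodes a condensin subunit. The miR-16-5p probe cannot tell the copies apart. miR-497-5p, named miR-497a-5p in RefSeq, lies at chr11:70234730-70234751 and miR-195a-5p at chr11:70235062-70235082, on the plus strand. miR-322-5p at chrX:53054306-53054327 and miR-503-5p at chrX:53054027-53054049 lie on the minus strand within the span of the non-coding gene C430049B03Rik. Exon and intron limits were not used here.

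Detection required a median spot signal over the 95th percentile of the array's 5 blank spots, a threshold of 70.0 for day 0 and 71.4 for day 10. Of all probes, 738 were detected on day 0, 476 on day 10 and 739 on at least 1 array. The scanner signal of these 739 probes was lower on day 10, with a median ratio of day 10 over day 0 of 0.586, and 64 of them (8.66%) had a higher mean signal on day 10. The 19 spike-in probes had a median log2 difference of -0.25 in scanner signal and the 5 probes for 5S rRNA one of 0.15. Of 17 probes for embryonic stem cell miRNAs (of the miR-290 and miR-302 clusters), 15 were detected on each day. Their summed signal, led by bright probes of the miR-290 cluster, was 80670 on day 0 and 65240 on day 10. After the normalization described below, 4 of the 17 were at least 2-fold higher on day 10 and 0 lower. The median log2 difference of those detected was 0.47. Of 19 probes for mesenchyme and fibroblast miRNAs, 15 were detected on day 0 and 9 on day 10, and their summed signal was 14996 and 3060. After normalization 0 of these were at least 2-fold higher and 9 lower, with a median of -1.21. There were 5 neural, 7 muscle and heart, 7 blood and 2 endothelial probes. Of these, 3, 2, 2 and 1 were detected on day 0, and 3, 2, 0 and 1 on day 10. The part of these shifts in the values of the miR-15/16 family was not tested.

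In scanner signal, the family was detected on both days except for 1 member. The spots of miR-322-5p read 432.16, 453.37 and 368.51 on day 0, and 459.57, 554.45 and 480.89 on day 10. All day 10 spots were above all day 0 spots, and the means were 418 (SD 44.2) and 498 (SD 49.8), a ratio of 1.19. The spots of miR-15a-5p read 303.96, 291.36 and 290.15 on day 0, and 290.92, 323.33 and 328.31 on day 10. Here the days overlapped, with means of 295.2 (SD 7.65) and 314 (SD 20.3) and a ratio of 1.06. These were the only members of the 6 detected whose mean signal was higher on day 10. In RNA of whole cultures, fewer cells that make a miRNA and less of it per cell cannot be told apart.

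A group of 3 members was slightly dimmer on day 10. The spots of miR-16-5p read 2403.66, 2283.91 and 2231.11 on day 0, and 1535.11, 1833.41 and 1756.45 on day 10, with no overlap. Its mean ratio was 0.741. The spots of miR-15b-5p, its partner in the chromosome 3 cluster, read 1575.22, 1493.40 and 1520.39 on day 0, and 1201.05, 1336.58 and 1355.61 on day 10. They did not overlap either, and the mean ratio was 0.848. The spots of miR-195a-5p read 228.61, 233.27 and 249.69 on day 0, and 217.98, 201.75 and 194.81 on day 10, again apart, with a mean ratio of 0.864.

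The probes of the 2 remaining members lay near or below the threshold on day 10. The spots of miR-497-5p, which is encoded beside miR-195a, read 145.97, 168.65 and 143.06 on day 0, and 73.63, 76.98 and 77.72 on day 10. The day 10 spots lay just above the threshold of 71.4, and the mean ratio was 0.499, the lowest of the detected members. The spots of miR-503-5p read 70.59, 69.69 and 57.53 on day 0, and 57.19, 57.34 and 56.65 on day 10. Its median was just below the threshold on day 0 and below it on day 10, so it was not detected on either array and no fold is given. In all, 4 of 6 detected members had every day 10 spot below every day 0 spot, as had 83.9% of the 739 detected probes, and 1 of 6 had every day 10 spot above, as had 4.60%.

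**Figure D1:**
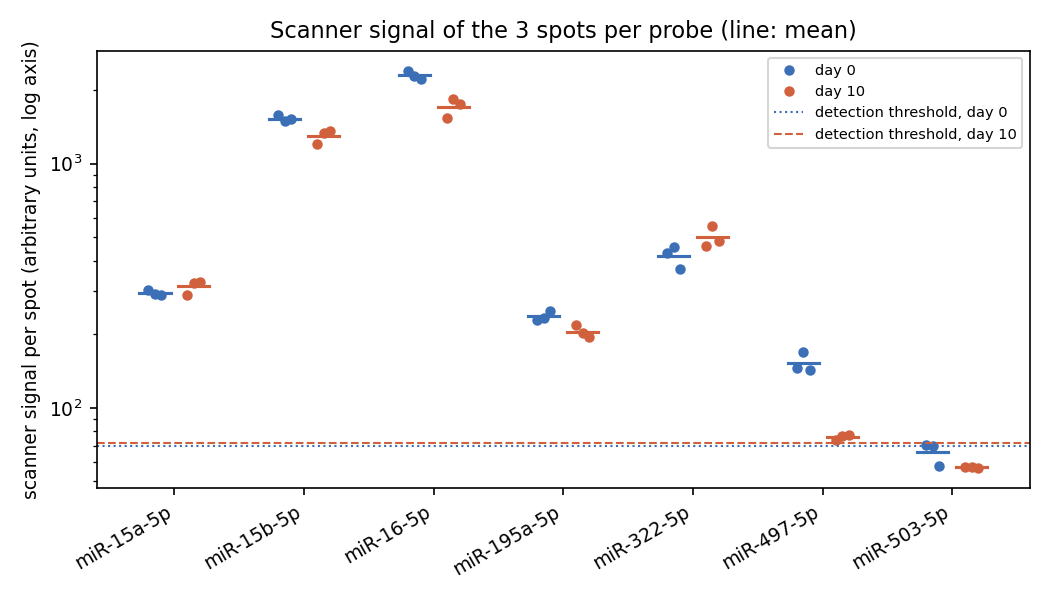
Scanner signal of each spot (points, log axis, arbitrary units) and the mean (lines) for the 7 members on day 0 and day 10, with each array's detection threshold. Only the spots of miR-322-5p lay all higher on day 10, while those of miR-497-5p lay just above the threshold on day 10 and those of miR-503-5p near or under it on both days.

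To compare the days relative to the bulk of detected miRNAs, spot signals were background corrected with an offset of 50, log2 transformed and quantile normalized. After this step the median difference of the 739 detected probes, day 10 minus day 0, was 0.024, with quartiles of -0.42 and 0.44. The 6 detected members had a median difference of 0.86, and 5 of them were above 0, against 51.3% of all detected probes. On this scale miR-322-5p and miR-15a-5p were at least 2-fold higher on day 10, that is 2 of 6, against 6.77% of all detected probes. A call of higher requires detection on day 10, which all 6 members had but only 476 of the 739 probes. The 50 probes called higher all come from those 476. The shares and percentiles given here are over all 739, which include probes under the threshold on day 10. None of the 6 was at least 2-fold lower, against 10.4% of all detected probes.

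miR-322-5p, the mouse counterpart of human miR-424, had the highest difference of the family. Its normalized log2 level was 8.21 (SD 0.15) on day 0 and 9.55 (SD 0.15) on day 10, which is 2.52-fold higher (log2 difference 1.33, SD 0.15) and at the 97.7th percentile of the differences of the 739 detected probes. miR-15a-5p followed, with levels of 7.77 (SD 0.031) and 8.91 (SD 0.10), 2.21-fold higher (1.14, SD 0.14) and at the 95.3rd percentile. The SD over spots does not measure the error of a difference between 2 arrays. Over 14 settings, described below, the difference ran from 0.11 to 1.68 for miR-322-5p and from -0.045 to 1.62 for miR-15a-5p. In scanner signal the spots of miR-15a-5p overlapped between the days.

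miR-15b-5p, miR-195a-5p and miR-16-5p were higher on day 10 on this scale but did not reach 2-fold. Their differences were 0.89 (SD 0.11), 0.82 (SD 0.13) and 0.63 (SD 0.17), at the 91.2nd, 88.6th and 82.8th percentile. The other member of the miR-195a cluster, miR-497-5p, had a difference of -0.098 (SD 0.10), within the spread between its spots, at the 42.9th percentile. The offset shrinks differences of dim probes, and on day 10 miR-497-5p was near the threshold. The 2 guides of the chromosome 11 cluster thus lay further apart than miR-15b-5p and miR-16-5p of the chromosome 3 cluster. This does not compare the clusters themselves, since the miR-16-5p probe also reads the chromosome 14 copy. RNA of miR-16-5p, equal to miR-195a-5p in 19 of 21 bases, may also bind the miR-195a-5p probe. Their mean day 0 signals were 2306 and 237.

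**Figure D2:**
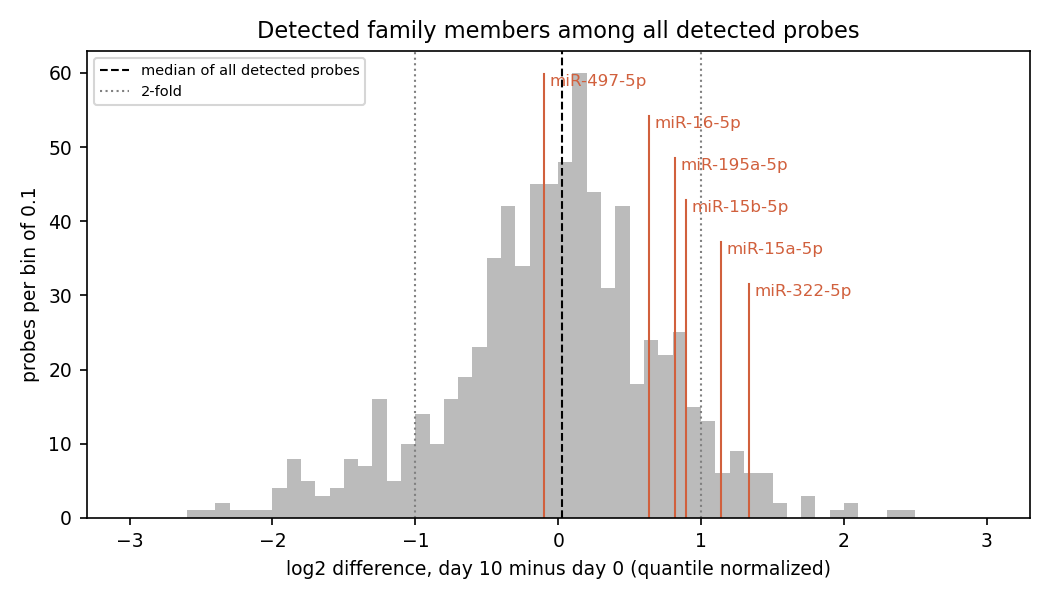
Histogram of the log2 difference, day 10 minus day 0, of the 739 detected probes after quantile normalization, with the 6 detected members as vertical lines and dotted lines at 2-fold. A group of 5 members lay to the right of the median of all detected probes, and miR-497-5p lay near it.

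The sign of most of the differences depended on how the arrays were set to each other. The family median of 0.86 became -0.20 when arrays were left unscaled, 0.021 when spike-ins set the scale and -0.35 when 5S rRNA set it, and all detected probes shifted with it, to medians of -0.63, -0.40 and -0.77. Measured from the median of the detected probes, the family median lay between 0.42 and 1.70 over 14 settings. In each of the 14 settings miR-322-5p was highest, miR-15a-5p next, miR-16-5p second lowest and miR-497-5p lowest of the 6. Between them, miR-195a-5p lay above miR-15b-5p in 8 settings and below it in 6. The first 5 members lay above the median of all detected probes in each of them, and miR-497-5p lay below it in 13. These settings are not separate checks, since 4 of the scalings differ from each other by a constant and all use the same 2 arrays.

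**Figure D3:**
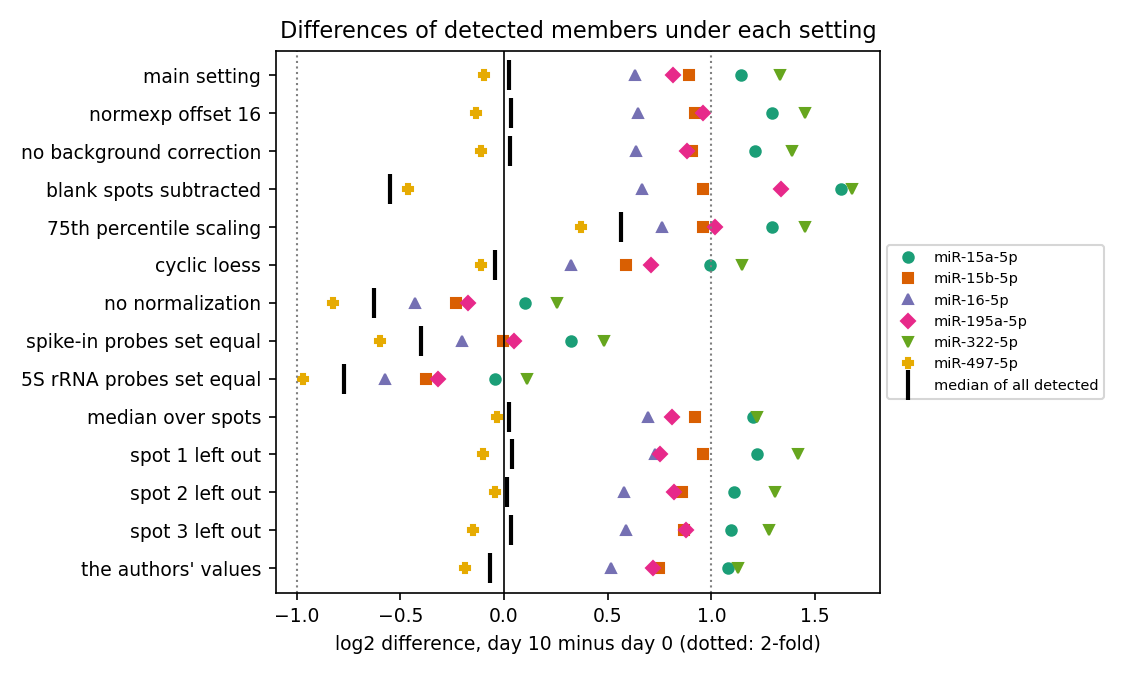
Log2 difference, day 10 minus day 0, of the 6 detected members (symbols) and the median of all detected probes (black bars) under 14 settings. All symbols move left together where no normalization, the spike-in probes or the 5S rRNA probes set the scale, and miR-322-5p stays furthest right.

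The authors' deposited values, whose background treatment and scaling the sources used here do not give, read 259 on day 0 and 625 on day 10 for miR-322-5p, 166 and 407 for miR-15a-5p, 1045 and 1786 for miR-15b-5p, and 1621 and 2339 for miR-16-5p. miR-195a-5p read 127.9 and 242, miR-497-5p 69.7 and 54.9, and the undetected miR-503-5p 12.7 and 25.4. On the log2 scale of value plus 50 the order of the 6 detected members was that of the quantile normalized values. There miR-322-5p and miR-15a-5p were again the members past 2-fold, with differences of 1.13 and 1.08. This order depends on the added 50. As plain ratios of day 10 over day 0, miR-15a-5p (2.45) lay above miR-322-5p (2.41), and miR-195a-5p (1.895) above miR-15b-5p (1.71).

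The partner arms of the same precursors did not follow the guides uniformly. Of 8 probes for 3p arms, 7 were detected on at least 1 array. Of these, 3 were at least 2-fold lower on day 10 and none was 2-fold higher, against 10.4% and 6.77% of all detected probes. These were miR-15a-3p, miR-16-1-3p and miR-195a-3p, whose own guides had positive differences under quantile normalization. The spots of miR-195a-3p read 1220.17, 1186.52 and 1366.49 on day 0, and 154.08, 145.88 and 135.10 on day 10, which leaves a scanner signal 8.67-fold lower. miR-16-1-3p was 8.18-fold and miR-15a-3p 7.11-fold lower in scanner signal. The normalized differences of miR-195a-3p, miR-16-1-3p and miR-15a-3p were -1.88 (SD 0.18), -1.86 (SD 0.063) and -1.64 (SD 0.11).

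The arm contrast, the difference of the 5p arm minus that of the 3p arm, was 2.78 for miR-15a, 2.49 for miR-16 against miR-16-1-3p and 2.70 for miR-195a on the log2 scale. The same miR-16-5p probe is set against miR-16-1-3p and miR-16-2-3p. It reads RNA of both copies, so neither of these contrasts is that of a single precursor. A constant scaling cancels in this contrast, which over the 14 settings ran from 2.76 to 3.90 for miR-15a, from 2.24 to 3.65 for miR-16-1 and from 2.64 to 3.77 for miR-195a. In the chromosome 3 cluster the arms stayed close, with 3p differences of 0.59 (SD 0.092) for miR-15b-3p and 0.45 (SD 0.017) for miR-16-2-3p, and contrasts of 0.31 and 0.19. miR-322-3p, which only day 10 detected, had a difference of 0.66 and a contrast of 0.68. miR-503-3p was detected on day 0 only, with a mean signal of 174 (SD 9.29), against 55.3 (SD 3.62) on day 10.

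**Figure D4:**
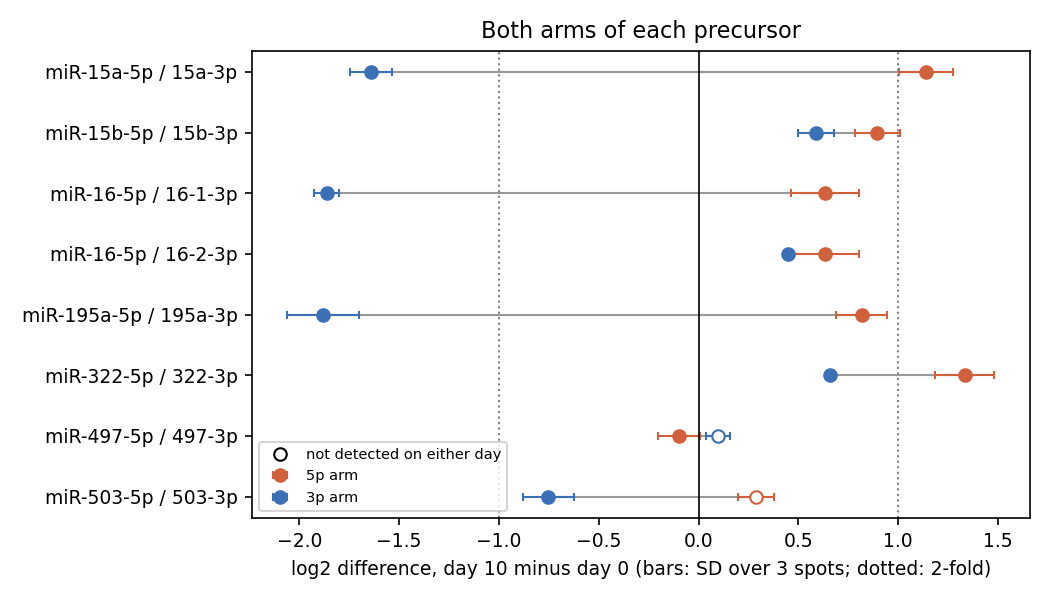
Log2 difference, day 10 minus day 0, of the 5p arm (orange) and the 3p arm (blue) of each precursor, with the SD over 3 spots as bars and open circles for probes detected on neither array. The arms of miR-15a, miR-16-1 and miR-195a lie 2.49 to 2.78 apart, and those of miR-15b and miR-16-2 at most 0.31. The 3p probes of miR-15b and miR-16-2 were near the threshold on both days. The rows of miR-16-1 and miR-16-2 use the same miR-16-5p probe, which cannot tell the copies apart.

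The precursors of miR-16-1, miR-16-2 and miR-195a are printed because the first and second give the same guide from different chromosomes with 3p arms of unlike differences, and the third gives a near copy of that guide. Both mature arms are in capitals. Mir16-1 lies at chr14:61631880-61631972 on the minus strand, Mir16-2 at chr3:69009902-69009996 and Mir195a at chr11:70235042-70235135 on the plus strand (RefSeq, GRCm38.p6).
Mir16-1: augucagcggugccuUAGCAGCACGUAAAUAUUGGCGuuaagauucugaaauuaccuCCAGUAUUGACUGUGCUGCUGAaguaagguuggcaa
Mir16-2: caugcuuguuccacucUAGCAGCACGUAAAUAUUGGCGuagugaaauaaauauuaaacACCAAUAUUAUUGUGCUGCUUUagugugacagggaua
Mir195a: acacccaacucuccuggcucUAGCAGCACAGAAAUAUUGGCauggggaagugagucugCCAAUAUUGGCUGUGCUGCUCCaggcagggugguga

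The 3p arms of miR-16-1 and miR-195a shared 18 of 22 bases, so their signals may not be separate. With miR-15a-3p they shared the stretch CUGUGCUGC, looked for because these arms were lower on day 10, and no other of the 1265 targets on the array held it in full (0.237% of all). miR-16-2-3p, which did not differ by 2-fold, lacked the first base of that stretch. The GC content of the 7 guides ran from 40.9% to 56.5%, and that of miR-15a-3p, miR-16-1-3p and miR-195a-3p was 59.1%, 50% and 54.5%. It was 36.4% for miR-15b-3p, 31.8% for miR-16-2-3p, 47.6% for miR-322-3p and miR-497-3p, and 50% for miR-503-3p. The part of base composition in these values was not tested.

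The seed core AGCAGC at bases 2 to 7 was held by 12 of the 1265 targets (0.949%), that is by the 7 members and by miR-195b, miR-1907, miR-6342, miR-6353 and miR-6419. Of these 5 others, 4 were detected on day 0 and only miR-1907 on day 10. The spots of miR-1907 read 691.09, 766.10 and 863.41 on day 0, and 208.64, 216.15 and 237.95 on day 10. They lay apart, with a normalized difference of -0.63 (SD 0.065). miR-195b, which shares 18 of 21 bases with miR-195a-5p and differs from it by U17G, G19A and C21A, was detected on day 0 alone, with a mean signal of 88.7 (SD 3.21), against 41.6 (SD 1.81) on day 10. Probes with the same seed ranged from -0.63 to 1.33 among those detected on both days.

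Of the other miRNAs of the X-linked cluster, 2 of 9 probes were detected, both of them on both days. miR-450a-5p had spots of 105.95, 92.00 and 93.16 on day 0 and of 113.78, 115.28 and 109.23 on day 10, and a normalized difference of 0.96 (SD 0.081). miR-351-5p had a mean signal of 177 (SD 7.81) on day 0 and 98.8 (SD 5.05) on day 10, and a normalized difference of 0.097 (SD 0.049). The difference of miR-322-5p was 1.33 on the same scale, and whether the members of the cluster differ from each other could not be tested.

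Among probes outside these lists at or above the median level of detected probes, the differences nearest to the family median of 0.86 over the 2 arrays were those of miR-669a-3-3p (0.85, SD 0.11), miR-381-3p (0.84, SD 0.74) and miR-467a-5p (0.84, SD 0.18). The value of miR-381-3p rests on 1 spot, which read 328.60 on day 10 beside 88.80 and 87.85.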

How the data were processed

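Scanner files gave spot intensity as deposited by the authors, given per the file headers as the median density of a spot on a linear scale, with 3 spots for each mature miRNA probe. No background column or normalization is stated for it. A second table held the authors' deposited intensity per probe. Its processing is not given in the sources used here, and it served as an alternative.

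Spot signals were corrected with normexp (offset 50, all spots) in limma 3.58.1 under R 4.3.3 and log2 transformed. Control spots were then left out, the arrays were quantile normalized, and the 3 spots of a probe were averaged. The offset of 50 stays in the folds, which understates dim probes. The SD of a difference is over the 3 spots, paired by their place on the array. With 1 array per day no test was run, and the number of arrays limits the precision.

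A member was called higher or lower at a log2 difference of at least 1 in size where the brighter array detected it. The named miRNAs were all members, other probes with the seed core, the partner arms, the X-linked cluster and the 3 probes nearest to the family median. The members and lists were chosen with earlier results of these data known, and any other name or sequence stretch was chosen after its values were seen. Alternatives were other background corrections, scalings, spot summaries, detection rules and a 4-fold threshold. The procedure was run on simulated arrays with changes only in bright probes, each larger than any difference of a member. That run does not test calls near the 2-fold threshold or of dim probes.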

Additional observations from a re-analysis of the deposited data

How the results depend on the processing

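The differences are limited by 1 array per day and, for miR-497-5p and miR-503-5p, by signal near the blank spots. No paired analysis was possible because there is a single array for day 0 and for day 10. The family median of 0.86 became 0.94 with an offset of 16, 0.89 without background correction, 1.15 with the blank spots subtracted, 0.99 with 75th percentile scaling, 0.65 under cyclic loess, 0.73 for the authors' values and 0.82 with no detection filter. It was 0.021 when spike-ins set the scale, -0.20 when arrays were left unscaled and -0.35 when 5S rRNA set the scale. The 2 members at least 2-fold higher became 3 with 75th percentile scaling and with the blank spots subtracted, where miR-195a-5p was at 1.02 and 1.34, 1 with cyclic loess, and 0 unscaled, on the spike-in or 5S rRNA scale, and at a 4-fold threshold. No setting called a member lower.

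On the 5S rRNA scale, the difference was -0.045 for miR-15a-5p, -0.38 for miR-15b-5p, -0.58 for miR-16-5p and -0.32 for miR-195a-5p. Unscaled it was -0.23 for miR-15b-5p, -0.43 for miR-16-5p and -0.18 for miR-195a-5p. On the spike-in scale it was -0.0073 for miR-15b-5p and -0.20 for miR-16-5p. With 75th percentile scaling miR-497-5p was at 0.37. These scalings add 1 constant to every unnormalized difference. Over all detected probes, the numbers called higher and lower were 50 and 77 under the main settings, 122 and 51 with 75th percentile scaling, 34 and 86 under cyclic loess, 38 and 96 for the authors' values, 81 and 105 with an offset of 16, 154 and 300 with the blank spots subtracted, 6 and 232 unscaled, 6 and 178 on the spike-in scale, 4 and 267 on the 5S rRNA scale, and 4 and 7 at 4-fold. The cause of the other shifts was not tested.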
